A study of Mus musculus with 3 samples.

Results

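The oxidative phosphorylation genes, encoded in the nucleus and in mitochondria, were examined in T follicular regulatory (TFR) cells, the Foxp3+ T cells that enter B cell follicles and restrain germinal centre responses. Members were all protein-coding genes whose names start with Nduf (complex I), Sdha to Sdhd (complex II and its assembly factors), Uqcr (complex III), Cox4 to Cox8 (complex IV), Atp5 (complex V, the ATP synthase) or mt- (mitochondrially encoded). The rule used names only and no measured value. It found 109 of 25759 genes, 96 encoded in the nucleus and 13 in mitochondria. By name and known function 75 nuclear members were subunits. Of these, 37 belonged to complex I, 4 to II, 8 to III, 11 to IV and 15 to V. The other nuclear members were 12 assembly factors, 7 tissue isoforms of complex IV, and Atp5s and Ndufa4l2, which were not counted as subunits. Ndufa4 was counted under complex I by its name, although the protein is now placed with complex IV.

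TFR cells with the surface and reporter pattern B220-CD4+BlimpGFP+CXCR5+GITRhi were sorted from spleen and mesenteric lymph nodes of NP-KLH-immunized mice, and 1 poly(A) RNA-seq library was made per genotype, 3 in all. The mice received 125 µg NP-KLH in alum i.p., were boosted on day 7 and were used on day 10. They were C57BL/6J, male or female, and the number of mice and their age behind each library are not given in the sources used here. Library N had the genotype Nfatc1 fl/fl.Prdm1 +/gfp.FIC and is labelled NFATc1-deficient. Library αA had the genotype Nfatc1 caaA.Prdm1 +/gfp.FIC and is labelled as overexpressing NFATc1/αA, a short isoform of the T cell factor NFATc1 made here in a constitutively active form. Library PαA had the genotype Nfatc1 caaA.Prdm1 fl/gfp.FIC, in which Blimp-1, the product of Prdm1, is deleted in addition. All 3 genotypes carry FIC (Foxp3-IRES-Cre), a recombinase that acts in Foxp3+ cells, and a gfp reporter allele of Prdm1, so that each has at most 1 intact copy of that gene.

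Oxidative phosphorylation is the final stage of respiration. Complexes I to IV of the inner mitochondrial membrane pass electrons from NADH and succinate to oxygen and pump protons, except complex II, which pumps none, and complex V uses the proton gradient to make ATP. Most subunits are made from nuclear genes and imported, and a small hydrophobic core is made inside the organelle from mitochondrial DNA, which is transcribed as long precursors from both strands and cut at the tRNAs that lie between most protein genes. Regulatory T cells are known for relying on respiration more than conventional effector T cells do.

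Promoter letters were read as a feature that the rule did not use. RefSeq promoters (GRCm38.p6, 250 bases before to 50 after the start) were matched for 78 of the 96 nuclear members. The 9 letters GCGCANGCG, a core of the site of NRF1, an activator of many respiratory genes, were present on either strand in the promoters of 24 of the 78 (30.8%) and in those of 7.03% of 27025 genes. The 8 letters CCGGAAGT, read by ETS factors such as GABP, were present in 5 of 78 (6.41%) against 4.31% of all genes, and CCAAT in 43.6% against 41.1%. All 3 were searched on both strands, and GCGCANGCG can match both strands of 1 stretch at neighbouring positions, which is then shown as 1 run of capitals. The median GC content of the promoters was 58.3% for the members and 52.7% for all genes, which moves with GC-rich motifs, and its part in the shares was not tested. A match describes letters and is not a bound site. The promoters of 1 member of each complex that holds the NRF1-type letters are shown 5′ to 3′ on the gene's own strand. Matches to GCGCANGCG or CCGGAAGT are in capitals. These members were chosen because their log2 ratios, given further on, differ, from 0.63 for Ndufa6 to -0.31 for Sdha in PαA against N.
Ndufa6, chr15:82354242-82354541 (- strand): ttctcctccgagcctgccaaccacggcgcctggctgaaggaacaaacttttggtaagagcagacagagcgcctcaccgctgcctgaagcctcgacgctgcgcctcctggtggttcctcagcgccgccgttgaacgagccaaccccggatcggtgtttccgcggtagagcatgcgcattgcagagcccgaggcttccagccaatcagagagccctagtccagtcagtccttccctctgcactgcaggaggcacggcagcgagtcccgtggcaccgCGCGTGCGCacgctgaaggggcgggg
Sdha, chr13:74350191-74350490 (- strand): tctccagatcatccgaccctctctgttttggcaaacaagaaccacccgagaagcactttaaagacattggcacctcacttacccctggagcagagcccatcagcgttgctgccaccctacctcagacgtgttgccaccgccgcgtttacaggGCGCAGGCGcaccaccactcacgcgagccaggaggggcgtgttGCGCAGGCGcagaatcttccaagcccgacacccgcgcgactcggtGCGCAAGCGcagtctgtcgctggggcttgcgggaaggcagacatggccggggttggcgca
Uqcrc1, chr9:108936398-108936697 (+ strand): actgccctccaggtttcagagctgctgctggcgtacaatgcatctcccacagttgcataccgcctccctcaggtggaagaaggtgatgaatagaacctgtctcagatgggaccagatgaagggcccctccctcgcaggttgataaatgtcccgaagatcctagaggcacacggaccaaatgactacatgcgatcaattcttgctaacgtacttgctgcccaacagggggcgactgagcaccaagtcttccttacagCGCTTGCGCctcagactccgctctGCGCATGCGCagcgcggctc
Cox6a1, chr5:115348909-115349208 (- strand): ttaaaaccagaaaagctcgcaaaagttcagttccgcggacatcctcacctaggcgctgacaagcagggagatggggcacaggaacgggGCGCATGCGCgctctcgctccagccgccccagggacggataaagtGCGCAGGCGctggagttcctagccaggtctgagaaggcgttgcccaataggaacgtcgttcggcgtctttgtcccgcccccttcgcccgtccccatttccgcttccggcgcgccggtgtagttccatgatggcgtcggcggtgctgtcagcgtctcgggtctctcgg
Atp5h, chr11:115419870-115420169 (- strand): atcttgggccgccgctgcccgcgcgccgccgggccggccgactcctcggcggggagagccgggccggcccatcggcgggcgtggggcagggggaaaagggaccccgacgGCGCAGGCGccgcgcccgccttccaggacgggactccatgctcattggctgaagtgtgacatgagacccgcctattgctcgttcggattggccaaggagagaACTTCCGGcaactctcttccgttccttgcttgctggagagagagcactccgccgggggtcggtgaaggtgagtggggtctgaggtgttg

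The Ndufa6 match stands just past the start, whereas Sdha carries its 3 before the start. Atp5h alone of these 5 holds both motifs.

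The mitochondrially encoded members are packed without introns, and some neighbours share bases. The overlaps of mt-Atp8 with mt-Atp6 (43 bases) and of mt-Nd4l with mt-Nd4 (7 bases) are shown in capitals with 20 bases on each side (GRCm38, MT:7907-7989 and MT:10147-10193), because each pair stays on 1 mature mRNA, and their values are compared below.
mt-Atp8 and mt-Atp6: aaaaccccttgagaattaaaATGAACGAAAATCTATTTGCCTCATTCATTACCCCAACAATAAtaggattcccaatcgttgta
mt-Nd4l and mt-Nd4: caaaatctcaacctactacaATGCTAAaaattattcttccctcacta

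Both overlaps open with ATG, the start codon of the downstream gene. In addition mt-Atp6 and mt-Co3 share 1 base, and mt-Nd5 and mt-Nd6, which lie on opposite strands, share 14.

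The tables held 24258845 exon reads for αA, 27637953 for N and 23269443 for PαA, of which 80.6% to 83.9% matched 1 place in the genome. The 8 T and TFR cell markers had reads in every library, with summed levels of 1741, 1506 and 1118 RPKM (reads per exon length and library size) in N, αA and PαA. Cd4, Pdcd1, Tnfrsf18, Ikzf2 and Foxp3 each followed the order of that sum. Cd3e (462, 518 and 377 RPKM), Il2ra (33.5, 38.6 and 29.1) and Cxcr5 (48.3, 81.3 and 47.6) were highest in αA. Nfatc1, measured over the whole gene, stood at 63.6, 62.9 and 32.4 RPKM. This count also takes in exons outside the floxed part, so it does not check the deletion in N, and the library labelled αA was not above the library labelled N. The names N, αA and PαA therefore stand for labels throughout. Prdm1 stood at 25.6, 24.9 and 10.02 RPKM, lowest in the library labelled Blimp-1-deficient, and Foxp3 at 32.7, 20.9 and 15.3 RPKM. With 1 library per genotype there is no spread between mice, no test was possible, and each interval given is an exact Clopper-Pearson 95% interval that covers counting error only. In bulk RNA, fewer cells of a type and less RNA per cell cannot be told apart.

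Together the nuclear members took 1.13% of exon reads in N (interval 1.12 to 1.13), 1.19% in αA (1.18 to 1.19) and 1.32% in PαA (1.31 to 1.32). The 13 mitochondrially encoded genes took 2.76% in N (2.75 to 2.77), 3.32% in αA (3.32 to 3.33) and 3.76% in PαA (3.75 to 3.76). Both shares were lowest in N and highest in PαA. The counting intervals did not overlap, but they are narrow at these read numbers and hold no spread between mice. As shares of TPM the nuclear members took 2.08%, 2.09% and 2.15% and the mitochondrially encoded genes 7.06%, 8.25% and 8.52% in N, αA and PαA. The mitochondrially encoded genes had 2.45, 2.80 and 2.85 reads for each read of a nuclear member in N, αA and PαA. This ratio of sums was lowest in N and close to equal in the 2 caaA libraries. It leans on 1 gene, as mt-Co3 alone held 25.7%, 29.8% and 34.2% of the mitochondrial reads in N, αA and PαA. The step from N to both caaA libraries is therefore not read as a trait of the 13 genes, and the part of mt-Co3 was not tested. Cytosolic ribosomal protein genes moved in the same order, with 13.6%, 15.4% and 19.8% of exon reads, and their part in the shares was not tested.

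Per length, the mitochondrially encoded genes stood far above the nuclear subunits in each library. The median RPKM of the 75 nuclear subunits was 103 in N, 107 in αA and 125 in PαA. The median of the 13 mitochondrially encoded genes was 1322, 1302 and 1466 RPKM. The highest nuclear subunit was Atp5e, the small epsilon subunit of the ATP synthase stalk, at 540, 619 and 695 RPKM, above mt-Nd4l, mt-Nd5 and mt-Nd6 in each library. Ranked by RPKM over all genes, mt-Co3 was 2nd in N and 1st in αA and PαA. At the low end of the mitochondrial set mt-Nd5 had 322, 326 and 262 RPKM. Among nuclear subunits the median level was lowest for complex I (53.8, 52.1 and 64.1 RPKM) and highest for complexes IV (168, 150 and 200 RPKM) and V (154, 158 and 180 RPKM).

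**Figure D1:**
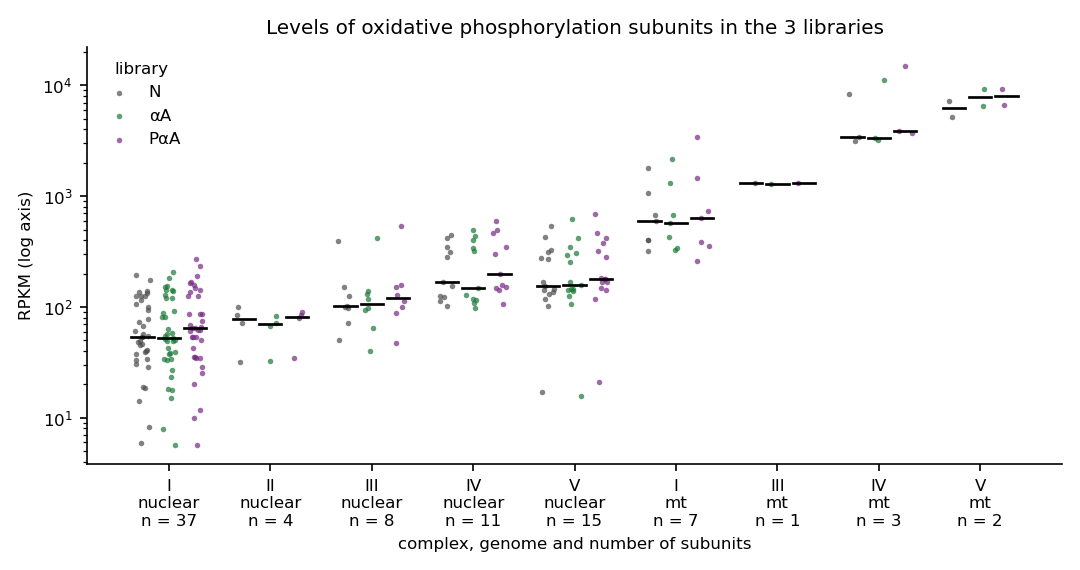
RPKM (log axis) of the 75 nuclear and 13 mitochondrially encoded (mt) subunits by complex and library; points are genes, bars are medians over the genes of a complex, and there are no replicates. The mt genes sit above most nuclear subunits, from 262 RPKM for mt-Nd5 to 14982 RPKM for mt-Co3 in PαA.

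The question asked of αA against N was how constitutively active NFATc1/αA, compared with loss of NFATc1, relates to these genes, and that of PαA against αA how the deletion of Blimp-1 does. PαA against N spans both. The 3 comparisons share libraries, so their values stand side by side and are not independent. Of the 96 nuclear members, 90 had more than 1 RPKM in a library and reads in all 3, and the other 6 were Ndufa4l2, Cox4i2, Cox6a2, Cox7b2, Cox8b and Cox8c. The log2 RPKM ratios of the 90 had a median of 0.027 in αA against N (48 higher, 42 lower; -0.0049 with TPM), 0.20 in PαA against αA (76 higher, 14 lower) and 0.22 in PαA against N (75 higher, 15 lower). Of 10117 genes with the same filter, 3176, 4278 and 3204 were higher, and their medians were -0.16, -0.076 and -0.24. The sizes depended on the scaling. With TPM the nuclear medians in both PαA comparisons were 0.032 and 0.028. With TMM factors, which place the median of all genes near 0, the nuclear medians were 0.19, 0.26 and 0.45, with 72, 79 and 82 of 90 higher. Centred on genes of similar exon length they were 0.074, 0.070 and 0.10, with 56, 56 and 61 of 90 higher.

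PαA was the library with the highest RPKM for 71 of the 90 nuclear members (78.9%) and for 8 of the 13 mitochondrially encoded genes (61.5%), against 25.04% of all genes. N was highest for 10 of the 90 and αA for 9. The shares of all genes given here are not matched for length, and the members are shorter (median 1128 against 3230 bases). Among the shortest genes, up to 1324 bases and with 54 of the 90 members, all genes had median ratios of 0.20 in PαA against αA. In PαA against N they had 0.22. The counting interval of the ratio lay above 0 for 26 of 90 nuclear members in αA against N, where 18.5% of all genes did so. It lay below 0 for 28 of 90 members and for 5378 of 10117 genes. The members were thus about evenly divided, while all genes lay more often below 0. In PαA against αA the interval lay above 0 for 59 of 90 against 28% of all genes, and below 0 for 8 against 4276 of 10117 genes. In PαA against N it lay above 0 for 61 of 90 against 21.9% of all genes, and below 0 for 9 against 5762 of 10117 genes. For the 13 mitochondrially encoded genes it lay above 0 for 8 in each comparison, and below 0 for 4, 2 and 4.

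The differences of single members were small. The study's filter, read as more than 5 RPKM in a library and a ratio above 2 either way, took 4.25% of 7017 genes in αA against N, 4.63% in PαA against αA and 10.3% in PαA against N. Of the 83 nuclear members above 5 RPKM it took 0, 0 and 1, and of the 13 mitochondrially encoded genes 0 in each. At 1.5-fold, 1 nuclear member was past the limit in αA against N (Sdhaf1, lower), 2 in PαA against αA (Ndufs5 higher, Sdhaf2 lower) and 3 in PαA against N (Ndufaf5 and Ndufa6 higher, Sdhaf1 lower). Past 1.5-fold higher were 3.12%, 5.53% and 5.67% of all genes and past 1.5-fold lower 11%, 9.19% and 22.3%, in the same order of comparisons.

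Complex I, NADH dehydrogenase, admits most electrons to the chain. Its 37 nuclear subunits had median log2 ratios of 0.034 in αA against N, 0.19 in PαA against αA and 0.26 in PαA against N, with 20, 33 and 31 of 37 higher. Centred on genes of similar length, 23, 21 and 26 of 37 were higher, with medians of 0.067, 0.038 and 0.11. On that scale 5056 of 10117 genes were higher in each comparison. Ndufa6, an accessory subunit, stood at 175, 183 and 271 RPKM in N, αA and PαA. N and αA were near each other and PαA stood above both, with a log2 ratio of 0.63 (0.56 to 0.70) against N. Ndufv1, which carries the NADH-binding flavin, had 48.0, 49.8 and 62.6 RPKM, again with PαA highest. Ndufa9, an accessory subunit near the quinone channel, had 46.7, 50.03 and 53.05 RPKM.

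Ndufa2, an accessory subunit, was the nuclear subunit with the largest ratio in αA against N, at 0.40 (0.31 to 0.48), and stood at 115, 152 and 164 RPKM. Here both caaA libraries were above N. Ndufs4, an accessory subunit needed for a stable NADH module, was lowest in αA, at 30.6, 23.6 and 34.7 RPKM. Ndufv3, another accessory subunit of that module, had the same shape at 34.3, 27.0 and 35.5 RPKM. For both, N and PαA were closer to each other than to αA.

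Against the general direction, Ndufs1, the largest core subunit with several iron-sulphur clusters, was at 14.2, 15.1 and 11.7 RPKM, a log2 ratio of -0.37 (-0.50 to -0.25) in PαA against αA. Ndufa10, an accessory subunit, stood at 40.9, 33.9 and 28.9 RPKM and had the lowest ratio of any nuclear subunit in PαA against N at -0.50 (-0.59 to -0.41). Ndufc2 had 94.2, 80.6 and 86.1 RPKM and was highest in N.

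Complex II, succinate dehydrogenase, links the chain to the TCA cycle and is wholly nuclear. Its 4 subunits had median log2 ratios of -0.16 in αA against N, 0.20 in PαA against αA and 0.092 in PαA against N. Of the 4, 1, 3 and 3 were higher, and 1, 4 and 2 with length centring. Its flavoprotein Sdha stood at 99.2, 82.9 and 80.1 RPKM and was highest in N, with a log2 ratio of -0.31 (-0.36 to -0.26) in PαA against N. The iron-sulphur subunit Sdhb had 85.3, 72.3 and 89.8 RPKM. The membrane anchors had 32.2, 32.8 and 34.7 RPKM for Sdhc and 71.8, 67.5 and 83.9 RPKM for Sdhd. Sdhb and Sdhd were lowest in αA and highest in PαA, so the subunits of this complex did not share 1 order.

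In complex III, cytochrome bc1, all 8 nuclear subunits under the rule were higher in PαA than in αA, with a median of 0.20 (6 of 8 and 0.10 with length centring). Cytochrome c1 (Cyc1), a nuclear subunit that the names leave out, had 58.2, 51.1 and 53.9 RPKM. Its log2 ratio was 0.075 (-0.024 to 0.17) in PαA against αA and -0.11 (-0.20 to -0.016) in PαA against N. Uqcrfs1, the Rieske iron-sulphur protein, had 71.0, 64.3 and 88.7 RPKM, and the hinge protein Uqcrh 397, 419 and 534 RPKM. The core proteins differed less, with 99.5, 94.7 and 99.6 RPKM for Uqcrc1 and 98.5, 97.5 and 112 RPKM for Uqcrc2. Uqcrq, a small subunit next to cytochrome b, was highest in N at 49.97, 40.4 and 46.9 RPKM.

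All 11 nuclear subunits of complex IV, cytochrome c oxidase, were higher in PαA than in N (median 0.22), and 10 of 11 were higher in PαA than in αA (median 0.29). With length centring these were 7 of 11 (median 0.026) and 8 of 11 (median 0.094). Cox5a, which contacts the catalytic core, had 168, 150 and 200 RPKM. Cox4i1, the regulatory subunit that starts assembly, had 449, 498 and 600 RPKM with 42.3% of its N reads unique. Cox5b, a zinc-binding subunit with 43.5% of its N reads unique, had 156, 129 and 158 RPKM, so N and PαA lay within counting error of each other (0.016, -0.049 to 0.081). Cox7a2l, counted under complex IV by its name, was higher at each step at 350, 404 and 496 RPKM. Its log2 ratio was 0.50 (0.47 to 0.54) in PαA against N.

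In complex V, 14 of 15 nuclear subunits were higher in PαA than in αA and 14 of 15 higher in PαA than in N, with medians of 0.18 and 0.27. With length centring 10 and 12 of 15 were higher, with medians of 0.14 and 0.20. The catalytic subunits differed little between the libraries, with 276, 257 and 285 RPKM for Atp5a1 and 431, 419 and 468 RPKM for Atp5b. The central stalk subunit Atp5c1 had 138, 147 and 167 RPKM. The peripheral stalk subunit Atp5h had 269, 295 and 380 RPKM and the largest complex V ratio in PαA against N, at 0.50 (0.45 to 0.54). The membrane-associated Atp5l, at 314, 304 and 419 RPKM, followed with 0.42.

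**Figure D2:**
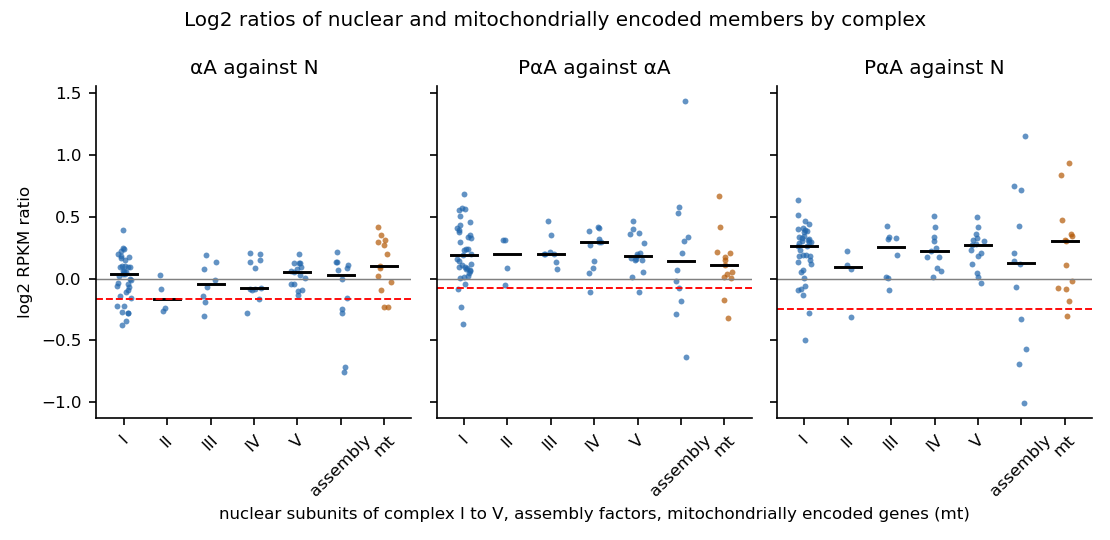
Log2 RPKM ratios of the members above 1 RPKM in the 3 comparisons, by nuclear complex, assembly factors and mitochondrially encoded genes (mt); points are genes, black bars medians, the grey line 0 and the red dashed line the median of all genes. In αA against N the medians of nuclear complexes I, III, IV and V lie near 0 and that of complex II at -0.16. Members of nuclear complexes I to V lie mostly above 0 in both comparisons of PαA, while the assembly factors spread from -1.003 to 1.15 in PαA against N.

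The 24 members with the NRF1-type letters had a median log2 ratio of 0.30 (quartiles 0.083 and 0.40) in PαA against N, and the 52 matched members without them 0.19 (quartiles 0.068 and 0.31). The quartiles overlapped in this and in both other comparisons. Ndufa6 and Sdha, shown above with 1 and 3 matches, had ratios of 0.63 and -0.31.

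The 12 assembly factors were more scattered than the subunits. Their quartiles in PαA against N were -0.39 and 0.50, against 0.080 and 0.33 for the 75 subunits. Sdhaf1, which helps insert the iron-sulphur clusters of Sdhb, was the 1 member past 2-fold, at 19.8, 12.1 and 9.89 RPKM, which gives -1.003 (-1.14 to -0.87) on the log2 scale for PαA against N. Only 32.7% of its N reads were unique, 68.9% of its 59-base stretches also lie in E130208F15Rik, which overlaps it on the opposite strand, and it was no longer past 2-fold with unique reads or with TMM factors. Sdhaf2, which attaches the flavin to Sdha and had unique reads only, was at 23.6, 24.7 and 15.9 RPKM, lowest in PαA like Sdha itself. Sdhaf3, of low level, had 73, 55 and 139 reads (at most 1.26 RPKM), which gives 1.43 (0.97 to 1.91) on the log2 scale for PαA against αA.

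Complex I assembly factors went both ways. Ndufaf5, which modifies Ndufs7, had 7.93, 8.72 and 13.03 RPKM, and Ndufaf2 2.27, 2.64 and 3.81 RPKM. Both were highest in PαA, with log2 ratios against N of 0.72 (0.49 to 0.94) and 0.75 (0.48 to 1.01). Of the Ndufaf2 stretches of 59 bases, 63.8% also lie in B230220B15Rik, a non-coding gene on the opposite strand. Ndufaf4 was lowest in PαA at 4.205, 3.54 and 3.35 RPKM, and Ndufaf6 had 85, 46 and 45 reads.

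Tissue isoforms of complex IV were at or near 0. Cox7b2, Cox8b and Cox8c, together with Ndufa4l2, had 0 reads in all 3 libraries, each below the limit of 3 reads that a count of 0 allows. Cox4i2, the lung and hypoxia form of subunit 4, had 7, 5 and 19 reads, and the muscle form Cox6a2 9, 0 and 5 reads. The muscle form Cox7a1 had 14, 22 and 9 reads and the testis form Cox6b2 28, 27 and 27. The common forms were expressed in every library, with 281, 322 and 298 RPKM for Cox6a1, 311, 341 and 351 RPKM for Cox6b1, 122, 115 and 151 RPKM for Cox7a2 and 415, 441 and 469 RPKM for Cox8a.

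Atp5g1, Atp5g2 and Atp5g3 encode the same mature c subunit of the ATP synthase rotor. Atp5g3 was the highest in each library, at 327, 345 and 319 RPKM, and did not differ between N and PαA beyond counting error (-0.032, -0.083 to 0.018). Atp5g2 had 144, 146 and 178 RPKM and Atp5g1 16.9, 15.8 and 20.9 RPKM, and both were highest in PαA. Ndufa4 had 192, 207 and 236 RPKM, beside its paralog Ndufa4l2 with 0 reads.

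The mitochondrially encoded members did not move as 1 group. Their median log2 ratio was 0.099 in αA against N (9 of 13 higher), 0.11 in PαA against αA (11 of 13 higher, but 5 of 13 and a median of -0.085 with length centring) and 0.30 in PαA against N (8 of 13 higher). Minus the nuclear median this is 0.072, -0.084 and 0.079, so on the RPKM scale both medians lay within 0.1 of each other in each comparison. With length centring they were further apart in PαA against αA, at -0.085 and 0.070. Over summed reads the mitochondrial genes had log2 ratios of 0.21, 0.21 and 0.42, and the 90 nuclear members 0.014, 0.19 and 0.20. Within the mitochondrial set the ratios in PαA against N ran from -0.30 to 0.94 with quartiles of -0.078 and 0.36, against 0.080 and 0.33 for the 75 nuclear subunits.

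High and low ratios lay in separate segments of the mitochondrial genome. The 8 genes from mt-Nd1 to mt-Nd3 were all higher in PαA than in N, with a median log2 ratio of 0.35 (0.11 to 0.94). The 4 heavy-strand genes from mt-Nd4l to mt-Cytb were all lower, with a median of -0.13 (-0.30 to -0.017). The only protein gene of the light strand, mt-Nd6, was at -0.078. The study does not state a strand-specific library, so reads over mt-Nd6 may come from either strand. With TMM factors, which move every ratio of a comparison alike, mt-Nd5 at -0.070 was the only one of the 13 below 0 in PαA against N, and the order of the genes was the same. In αA against N, 7 of the 8 and 1 of the 4 were higher, with medians of 0.28 and -0.13. In PαA against αA the medians were 0.19 (8 of 8 higher) and 0.034 (3 of 4 higher). The division into these segments was made after the values were seen and is a description.

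In the first segment mt-Co3, the third core subunit of complex IV, had 8401, 11239 and 14982 RPKM in N, αA and PαA. It was higher at each step, with log2 ratios of 0.42 and 0.41. Its neighbour mt-Nd3, a small core subunit of complex I, had 1797, 2162 and 3438 RPKM and log2 ratios of 0.27 in αA against N and 0.67 in PαA against αA. The catalytic subunit mt-Co1 differed least in this segment, at 3437, 3214 and 3716 RPKM, and mt-Co2, which receives electrons from cytochrome c, had 3165, 3365 and 3907 RPKM. The membrane-arm subunits mt-Nd1 and mt-Nd2 had 1059, 1302 and 1466 RPKM and 592, 679 and 734 RPKM.

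In the second segment mt-Nd5, the longest complex I gene of the set, had 322, 326 and 262 RPKM, so only PαA was low. The other genes of the segment were highest in N, with 678, 578 and 639 RPKM for mt-Nd4, 400, 340 and 353 RPKM for mt-Nd4l and 1322, 1295 and 1307 RPKM for mt-Cytb, the core of complex III. For mt-Cytb, N and PαA lay within counting error of each other (-0.017, -0.036 to 0.0032). The light-strand gene mt-Nd6 had 404, 433 and 383 RPKM.

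Ratios within a library do not depend on the library total. The level of mt-Nd3 was 5.58 times that of mt-Nd5 in N, 6.635 times in αA and 13.1 times in PαA, and the level of mt-Co3 was 26.1, 34.5 and 57.2 times that of mt-Nd5. mt-Nd3, mt-Co3 and mt-Nd5 were chosen for this after their values were seen. mt-Atp8 stood at 0.725, 0.704 and 0.720 of mt-Atp6, the proton channel subunit, and mt-Nd4l at 0.590, 0.589 and 0.553 of mt-Nd4. These are the pairs whose shared bases are shown above.

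**Figure D3:**
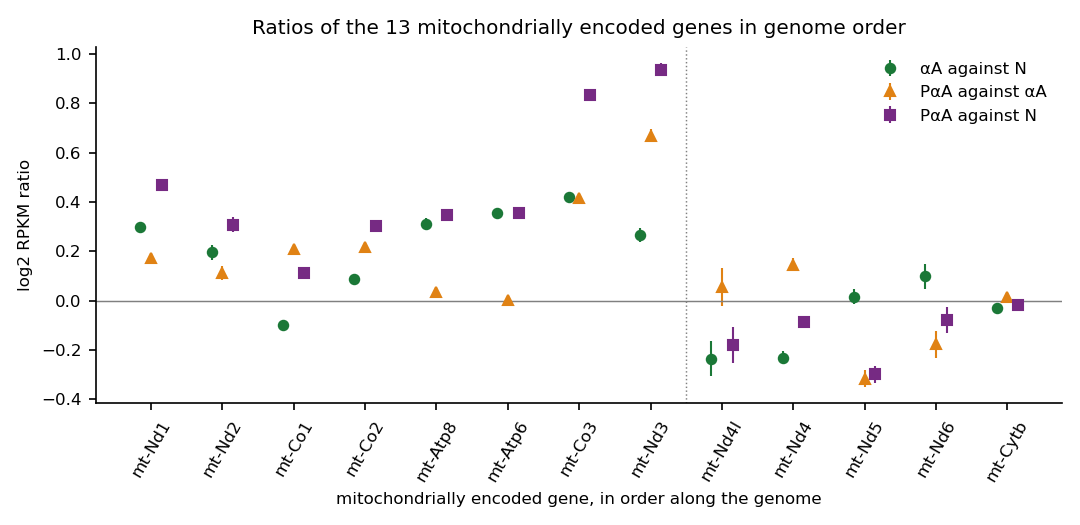
Log2 RPKM ratios of the 13 mitochondrially encoded genes in their order along the mitochondrial genome; bars are 95% counting intervals, most of them smaller than the symbols, and the dotted line divides the segments. In PαA against N the ratios peak at mt-Co3 (0.83) and mt-Nd3 (0.94) and lie below 0 from mt-Nd4l on when scaled by RPKM.

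Several mitochondrial genes have near-identical pseudogene copies in the nuclear genome. Of the 59-base stretches (the read length) of mt-Co2, mt-Co3, mt-Atp6, mt-Nd4l and mt-Nd3, 97.9% to 100% also occur in pseudogene transcripts of nuclear chromosomes in the GENCODE annotation of GRCm38, and 62.0% of those of mt-Nd4 and 46.9% of those of mt-Co1. For mt-Nd1, mt-Atp8, mt-Nd6 and mt-Cytb the share was 0%, and for mt-Nd2 and mt-Nd5 it was 7.24% and 4.70%. The tables hold no row for these pseudogene partners and count all reads of mt-Co3 and mt-Nd3 as unique, so reads of gene and copy cannot be told apart there. This holds for the mitochondrial genes with the largest ratios in PαA against N, mt-Co3 (99.9%) and mt-Nd3 (97.9%), and the part of the copies in the pattern was not tested.

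Reads that match several places also weighed on some nuclear members. Of the 90, 10 had under 50% unique reads, among them Cox7c (5.67% in N), Ndufb4 (4.82%), Ndufab1 (17.2%), Ndufs5 (21.5%), Uqcrb (39.1%), Ndufa13 (39.0%) and Ndufa12 (42.5%). These values limit Ndufs5, at 40.2, 33.1 and 53.2 RPKM, and Ndufa12, at 45.3, 42.4 and 62.4 RPKM, which have log2 ratios of 0.68 and 0.56 in PαA against αA. With unique reads alone the nuclear medians kept their direction in all 3 comparisons. Intron reads were 0.69% to 0.79% of the gene reads of nuclear members, against 3.62% to 5.30% over all genes.

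Gene length moved with the ratios. Over 10117 genes the log2 ratio was lower for longer exon length, with a Spearman rho of -0.27, -0.29 and -0.43 in αA against N, PαA against αA and PαA against N. Among the 90 nuclear members alone rho was -0.20, -0.15 and -0.23. These are descriptions across genes that share the libraries. Long members lay at both ends. Ndufs1 (3070 bases) and Ndufa10 (2020 bases) were among the low ratios in PαA against αA or N. Ndufa11 (2661), Ndufaf2 (2978) and Sdhaf3 (4323) were among the high ratios. In PαA against N the members with the 8 smallest ratios had 2490, 3096, 2020, 3632, 2900, 3070, 754 and 1827 bases. Those with the 8 largest had 4323, 2978, 1166, 560, 572, 1147, 804 and 1171 bases. Long members were thus more common at the low end. Of the 90 nuclear members, 54 fell in the shortest of 10 length bins with about equal numbers of genes (up to 1324 bases), and the members' median length was 1128 bases against 3230 for all genes. In that bin all genes had median ratios of -0.0042, 0.20 and 0.22, and the members had 0.063, 0.21 and 0.25. Centring on the genes of the same bin gives the length-centred medians printed earlier. The part of length in the results was not tested beyond this.

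**Figure D4:**
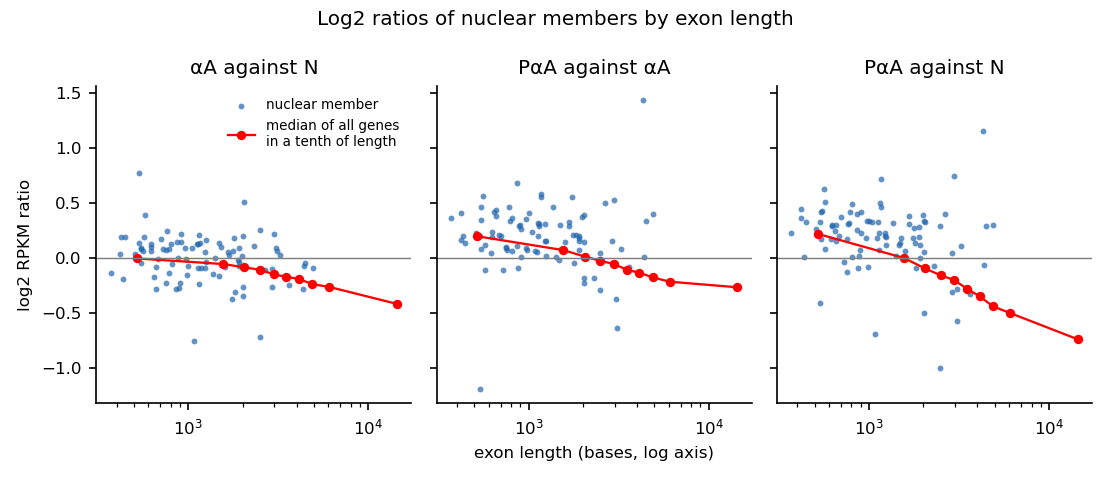
Log2 RPKM ratio against exon length (log axis) of the 90 nuclear members (blue points), with the median of all genes in each of the 10 length bins (red). In PαA against N the red line passes from 0.22 in the shortest bin to -0.74 in the longest, and most members lie in the short range.

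The size of the medians depended on the scaling. TPM rescales RPKM to 1 sum per library, and under it the nuclear medians were -0.0049, 0.032 and 0.028 and the mitochondrial ones 0.067, -0.052 and 0.11. With TMM the mitochondrial medians were 0.26, 0.18 and 0.53. The direction of the mitochondrial median in PαA against αA was thus negative under TPM, and under length centring at -0.085, and positive under the other 5 scalings plotted.

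**Figure D5:**
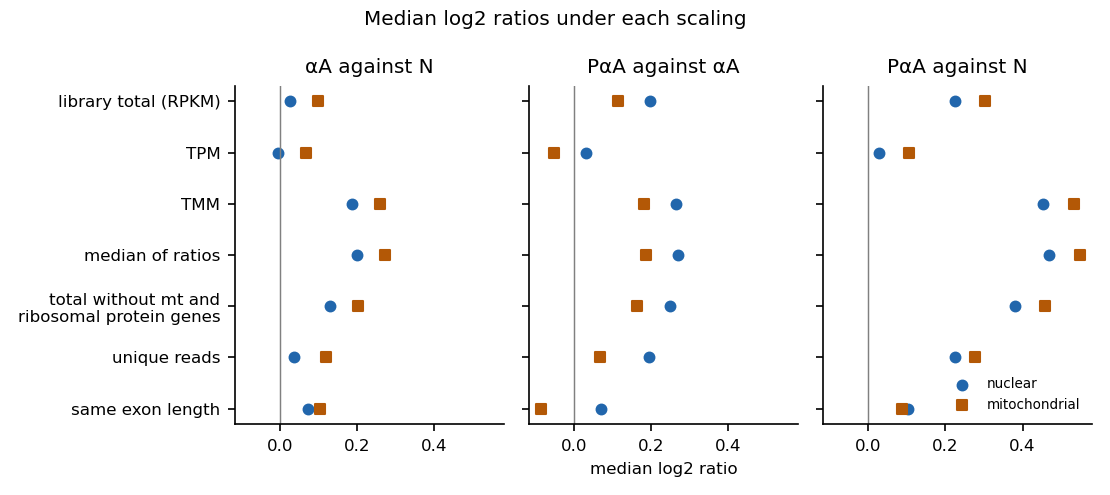
Median log2 ratio of the nuclear (circles) and mitochondrially encoded (squares) members in the 3 comparisons under 7 ways of scaling. In PαA against N the nuclear median lies between 0.028 (TPM) and 0.47 (median of ratios).

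Medians of related gene lists outside the rule lay on both sides of 0 on the RPKM scale, where 3176, 4278 and 3204 of 10117 genes were higher. The mitochondrial ribosome (78 genes), which translates the mitochondrial mRNAs, had medians of 0.021, 0.14 and 0.14 in αA against N, PαA against αA and PαA against N, with 41, 57 and 52 genes higher. The cytosolic ribosome (82 genes) had larger values of 0.11, 0.40 and 0.50, with 69, 82 and 81 higher. With TMM the mitochondrial ribosome had 0.18, 0.20 and 0.36 and the cytosolic ribosome 0.27, 0.47 and 0.73. Enzymes of the TCA cycle and pyruvate dehydrogenase (18 genes), which feed the chain, had -0.14, 0.057 and -0.11 with 5, 10 and 5 higher (0.017, 0.13 and 0.12 with 11, 11 and 12 higher by TMM), and citrate synthase (Cs) was at 80.3, 77.7 and 82.2 RPKM. Electron carriers and coenzyme Q synthesis (17 genes) had 0.014, -0.14 and -0.11 with 9, 7 and 5 higher (0.17, -0.067 and 0.12 with 11, 7 and 11 higher by TMM), among them cytochrome c (Cycs) at 9.44, 10.6 and 8.53 RPKM. Assembly factors of complexes III, IV and V outside the rule (26 genes) had -0.093, 0.048 and 0.0027, with 10, 15 and 13 higher (0.068, 0.12 and 0.23 with 15, 17 and 16 higher by TMM).

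Factors that act on the mitochondrial genome and its RNA (27 genes) had medians of -0.056, 0.15 and 0.16, with 13, 16 and 17 higher (0.10, 0.22 and 0.39 with 18, 17 and 23 higher by TMM). Tfam, which packages and transcribes mitochondrial DNA, was at 14.97, 15.05 and 16.7 RPKM, the polymerase Polrmt at 4.496, 4.54 and 3.91 RPKM, and the mRNA-stabilizing Lrpprc at 12.1, 10.1 and 10.9 RPKM. Nuclear regulators (8 genes) had 0.041, -0.18 and -0.27 with 4, 1 and 2 higher, which by TMM became 0.20, -0.11 and -0.042. With length centring they had 0.25, -0.0028 and 0.12 with 5, 4 and 6 higher, so no direction is read from this list. Nrf1 had 8.08, 6.07 and 5.996 RPKM, Gabpa 13.7, 11.4 and 8.08 RPKM and Esrra 8.19, 10.8 and 12.2 RPKM, so of these only Esrra was highest in PαA. Ppargc1a, the coactivator PGC-1α, had 0, 7 and 0 reads. Genes of mitochondrial mass and import (21 genes) had 0.032, 0.11 and 0.14, with 11, 13 and 12 higher (0.19, 0.17 and 0.37 with 15, 16 and 16 higher by TMM).

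Markers of other cells also differed between the libraries. Plasma cell markers (4 genes), from antibody-secreting cells, summed to 65.7, 78.3 and 113 RPKM. Jchain (44.3, 58.4 and 94.8 RPKM) and Sdc1 (0.744, 1.03 and 5.97) followed that order, while Irf4, which T cells also express, had 20.5, 17.9 and 12.3 RPKM and Tnfrsf17 0.206, 0.946 and 0. Erythroid and platelet markers (6 genes) summed to 573, 2407 and 2153 RPKM and myeloid markers (5 genes with a row) to 254, 145 and 214 RPKM. Most of the myeloid sum was Lyz2, at 214, 134 and 184 RPKM. S100a8 had 12.8, 0.831 and 11.9 RPKM, and S100a9 and Retnlg were at 0 in αA. Csf1r went the other way and was highest in αA, at 6.25, 10.6 and 6.62 RPKM. B cell markers (5 genes) summed to 16.0, 12.7 and 14.5 RPKM, CD8 T and NK cell markers (4 genes) to 12.5, 18.7 and 14.3 RPKM and dendritic cell markers (4 genes) to 2.23, 1.46 and 1.58 RPKM. The part of any of these in the results was not tested.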

How the data were processed

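RNA-seq of sorted TFR cells was analysed in 3 libraries, 1 per genotype, assigned by their labels. The authors aligned single 59-base reads to GRCm38 and counted them in CLC Genomics Workbench v12 with default settings; the annotation release is not given in the sources used here. The authors deposited raw read counts (exon, junction and intron; total and unique) for 25759 genes, with RPKM and TPM derived from them; 3715 genes with exon length 0 were not used. Library totals behind the RPKM were 29726219, 27239921 and 25465829 reads for N, αA and PαA.

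Ratios are log2 RPKM ratios with exact Clopper-Pearson 95% intervals; PCR reads are not independent molecules, so intervals and the floor of 3 reads cover counting error only. No test or p-value was possible. Members and lists were chosen with earlier results of these data known. Named members were all mitochondrially encoded genes, fixed core subunits and isoform sets, the 8 largest and 8 smallest ratios per comparison with at least 100 reads, and members past 2-fold; others were chosen after their values were seen. Of the 109 members, 95 had the same coordinates in the GENCODE annotation used here for shared 59-base stretches. Alternatives were TPM, TMM factors (edgeR 4.0.16 on the counts, R 4.3.3), median-of-ratios factors, other totals and filters, unique reads and a pseudocount of 1 RPKM. Length centring, junction reads and structural subunits alone were added after the data were seen. Python 3.11.15, pandas 2.3.3, numpy 2.4.6, scipy 1.17.1 and matplotlib 3.10.9 were used, and ratios, intervals and centring were tested on simulated data.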

Additional observations from a re-analysis of the deposited data

How the results depend on the processing

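No paired analysis was possible because each genotype has 1 library, and for the same reason no library could be left out. Values are given for αA against N, PαA against αA and PαA against N in this order. The nuclear median became -0.0049, 0.032 and 0.028 with TPM and 0.070 in PαA against αA and 0.10 in PαA against N with length centring. It became 0.19 and 0.45 with TMM, 0.20 and 0.47 with median-of-ratios factors, and 0.13 and 0.38 with a total without mitochondrial and ribosomal protein genes, in αA against N and PαA against N. The mitochondrial median became 0.067, -0.052 and 0.11 with TPM, 0.26, 0.18 and 0.53 with TMM, 0.27, 0.19 and 0.55 with median-of-ratios factors, and 0.20, 0.16 and 0.46 with that total. With unique reads it became 0.067 and 0.28, and with length centring -0.085 and 0.089, in PαA against αA and PαA against N. The mitochondrial minus the nuclear median turned to -0.015 with length centring in PαA against N. The construction of TPM and TMM, which set the total or the bulk of genes equal, shifts every ratio of a comparison alike; the cause of the other differences was not tested.

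In PαA against N the 1 nuclear member past 2-fold was 0 with TMM, median-of-ratios factors, the total named above, unique reads, members with at least 50% unique reads or a pseudocount of 1. The mitochondrially encoded genes past it, 0 as reported, became 2 with TMM, 2 with median-of-ratios factors and 1 with that total. At 1.5-fold the nuclear counts were 1, 2 and 3 and the mitochondrial counts 0, 1 and 2. With TMM, the medians in αA against N became 0.20, -0.0020, 0.12, 0.085 and 0.21 for nuclear complexes I to V and 0.26, 0.13, 0.25 and 0.50 for mitochondrial complexes I, III, IV and V. In PαA against αA they became 0.36 and 0.25 for nuclear complexes IV and V and 0.18, 0.081, 0.28 and 0.086 for the mitochondrial ones. In PαA against N they became 0.49, 0.32, 0.48, 0.45 and 0.50 for the nuclear and 0.15, 0.21, 0.53 and 0.58 for the mitochondrial ones. With unique reads nuclear complex IV in αA against N became 0.091, mitochondrial complex IV there 0.12, and mitochondrial complex I in PαA against αA 0.067. Of the values of named members, 15 changed sign with TMM, 16 with median-of-ratios factors, 22 with TPM, 1 with unique reads and 0 with a pseudocount of 1.

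The nuclear share of exon reads became 1.22%, 1.31% and 1.49% of unique reads and 2.08%, 2.09% and 2.15% of TPM in N, αA and PαA, and the mitochondrial share 3.04%, 3.76% and 4.36% of unique reads and 7.06%, 8.25% and 8.52% of TPM. The tissue isoforms had at most 28 reads each, and no order is read from them; of these Cox4i2 had a counting interval that excluded 0, at 2.02 (lower bound 0.55) in PαA against αA and 1.66 (0.35 to 3.16) in PαA against N, Cox6a2 lay below -0.85 in αA against N with 0 reads in αA, and Cox7a1 was at -1.19 (-2.50 to -0.016) in PαA against αA.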
